A study of Mus musculus with 11 samples.

Results

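Neutrophils carry preformed proteins in granules, and 10 genes for such proteins, their cytosolic partners and a receptor of neutrophil growth were followed in the airway of mice with ovalbumin (OVA) and lipopolysaccharide (LPS) induced asthma exacerbation. They are S100a8 and S100a9 (the calprotectin chains), Lcn2, Ltf, Ngp and Camp (specific granules), Mpo and Elane (primary granules), Mmp8 (neutrophil collagenase) and Csf3r (the receptor of granulocyte colony-stimulating factor). They were picked by symbol from the 21899 genes of the expression table, and each of the 10 symbols matched a single gene. RNA was sequenced from bluntly dissected airway of wild-type male BALB/c mice aged 6 to 8 weeks, with 3 libraries of PBS mice and 4 each of OVA/LPS/Vehicle and OVA/LPS/GGsTop mice. PBS mice were not sensitised and received sterile PBS only. Mice of the other groups were sensitised with OVA and alum on days 0 and 7, challenged with intranasal OVA on days 14 to 17, and given intranasal LPS on days 19 and 21. From day 21 to day 23 they were given intratracheal vehicle or 0.5 mg/kg GGsTop, an inhibitor of γ-glutamyl transferase, and tissue was taken on day 25. No group received OVA alone, LPS alone or GGsTop alone. The OVA/LPS/Vehicle libraries are numbered 12, 34, 56 and 78, and whether these are pools of mice is not stated, nor whether libraries of a group came from separate animals, so that p-values measure the spread between these libraries. The labels name trachea, while the study describes airway with the trachea removed. Airway epithelium markers were high in every library, with a summed level of 8 genes between 27485 and 49277 FPKM (fragments scaled to exon length and to the total of the library).

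Granule genes are switched on in sequence as neutrophils mature in the bone marrow. Mpo and Elane mRNA is made in promyelocytes, Ltf, Ngp, Camp and Lcn2 mRNA in myelocytes and metamyelocytes, and neutrophils that reach the airway hold the proteins but little of the early mRNA. S100a8 and S100a9 mRNA, by contrast, stays abundant in mature neutrophils and is also found in monocytes. Ltf and Lcn2 are not made by neutrophils alone: gland and airway epithelium secrete lactoferrin and lipocalin 2 as antimicrobial, iron-withholding proteins.

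C/EBP proteins, among them C/EBPε, and PU.1 are the transcription factors best known for control of granule genes, so the 250 bases before each start site were searched for their core letters in the mouse promoter sequences of RefSeq (build GRCm38.p6), which held all 10 genes. The letters TTGCNNAA, searched on both strands, occurred in 5 of the 10 and in 9.56% of all 32851 promoters. GAGGAAG, after PU.1, occurred in 6 of the 10 and in 10.6% of all promoters. TATAAA occurred in 1 of the 10, S100a8, and in 12.4% of all promoters. Each match is a description of letters, and no binding was measured. The C/EBP matches are shown in 30 bases of context, because Ngp and Ltf are among the genes that were higher after OVA/LPS, together with the PU.1 match of Csf3r, which was lower. Each is read 5′ to 3′ on the strand of the gene, with the match in capitals. The Ngp stretches lie on the plus strand at chr9:110419659-110419688 and chr9:110419778-110419807, that of Ltf on the plus strand at chr9:111019206-111019235, that of Lcn2 on the minus strand at chr2:32387937-32387966, that of S100a9 on the minus strand at chr3:90695939-90695968, that of Mmp8 on the plus strand at chr9:7558399-7558428 and that of Csf3r on the plus strand at chr4:126024562-126024591.
Ngp, 138 bases before the start: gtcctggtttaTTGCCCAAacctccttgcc
Ngp, 11 bases before the start: tttatgtcaccggcagttcTTGGGCAAggc
Ltf, 75 bases before the start: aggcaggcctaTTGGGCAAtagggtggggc
Lcn2, 216 bases before the start: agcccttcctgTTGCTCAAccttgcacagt
S100a9, 236 bases before the start: ggtaggctgtcTTGCTTAAgatttgggcgg
Mmp8, 19 bases before the start: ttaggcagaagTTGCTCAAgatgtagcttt
Csf3r, 86 bases before the start: ctccttcctgaGAGGAAGgggctgtctatg
By the GENCODE M21 annotation on GRCm38, which places some starts further upstream than RefSeq, the Lcn2 stretch, the Ngp stretch nearest the start and the Csf3r stretch overlap an exon of a transcript of the gene, and the others lie before the gene. The Ltf match and the Ngp match nearest the start read TTGGGCAA, the reverse complement of the other Ngp match. Camp, the other granule gene that was higher, held no match to any of the 3 motifs in this stretch. In the same build Camp, Ngp and Ltf lie in this order on chromosome 9, with gaps of 0.57 and 0.596 megabases, and S100a8 and S100a9 lie 22597 bases apart on chromosome 3.

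The libraries held 14513136 to 18632382 fragments, recovered from the FPKM. The library PBS 3 stood apart: its values rose with the GC content of genes by 0.533 log2 per 10 points, against 0.0611 and 0.0484 in PBS 1 and PBS 2. The slopes were −0.261 to −0.19 after OVA/LPS with vehicle and 0.0464 to 0.108 after OVA/LPS with GGsTop. Mitochondrial genes took 2.08% of the summed FPKM in PBS 3, 6.39% and 10.1% in the other PBS libraries, 14.5% to 19.5% after OVA/LPS with vehicle and 7.4% to 11.1% after OVA/LPS with GGsTop. Values without PBS 3 are given where its removal ended a call against PBS, and the part of these features in the results was not tested. Fold changes are log2 of FPKM + 1 from a single limma fit of all 11 libraries, with standard errors (SE) and two-sided p-values adjusted over the 14004 genes whose mean reached 0.5 FPKM. Called means an adjusted p under 0.05. Of the 10 genes, 8 passed this filter, and Mpo and Elane did not.

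The first comparison asks how OVA/LPS with vehicle changed the airway. Ltf, Ngp and Camp rose in the OVA/LPS/Vehicle group relative to PBS, Csf3r fell, and S100a8, S100a9, Lcn2 and Mmp8 were not called. The 4 called genes of 8 stand beside 38% of all tested genes called in this comparison (15.9% higher and 22.1% lower), so the number is not far from the background. The same 4 genes had no overlap between the groups, which held for 44.1% of all tested genes, and 5 of the 8 had an unadjusted p under 0.05, as did 49.6% of all. The median log2 fold change of the 8 was 0.46, beside −0.01 for all tested genes. In whole airway RNA, fewer cells of a type and less RNA per cell cannot be told apart.

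**Figure D1:**
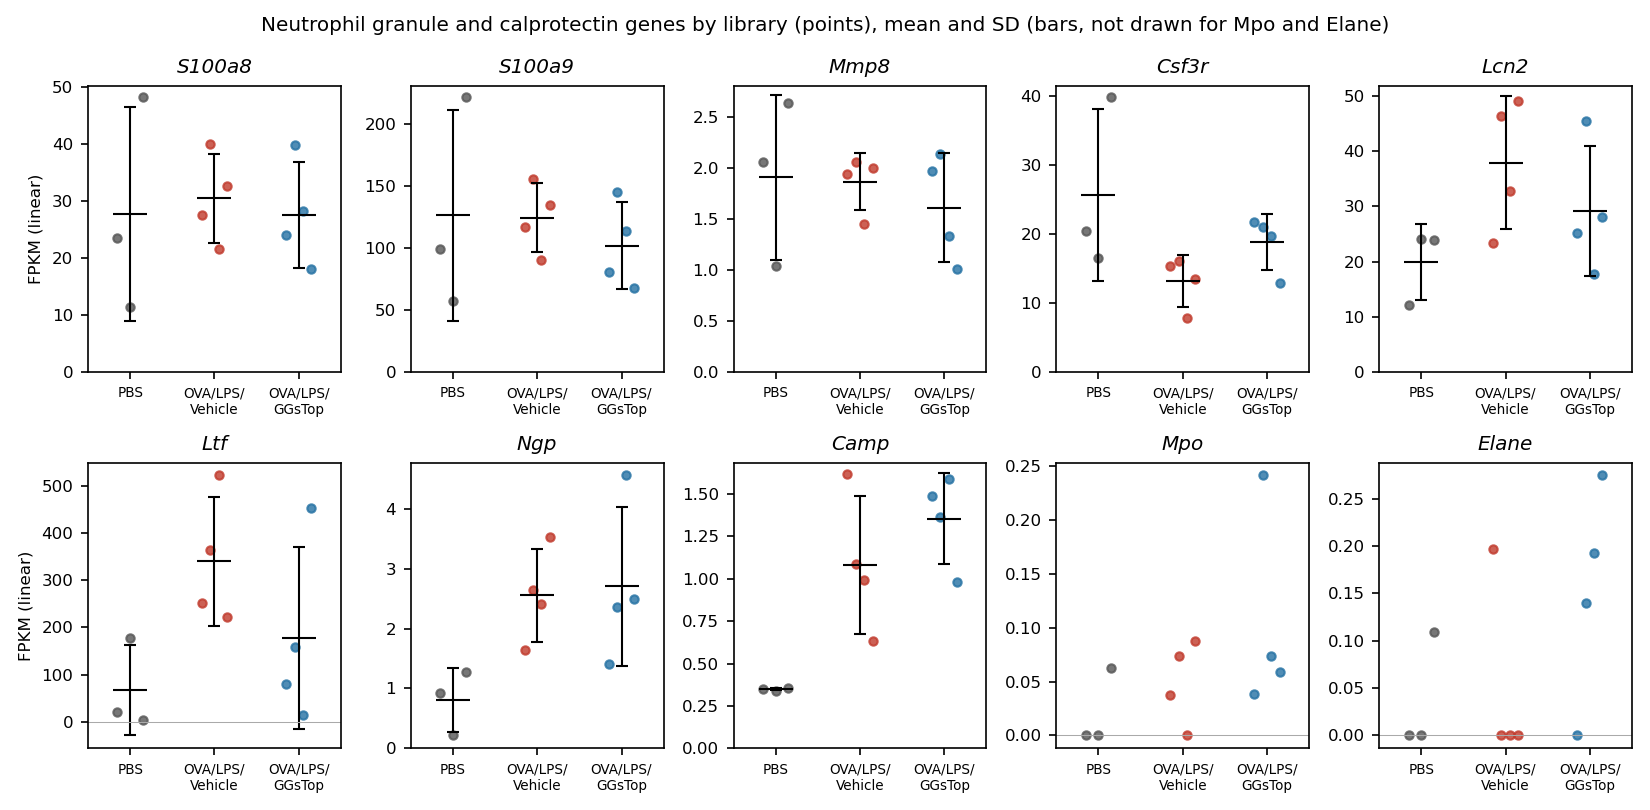
FPKM of each of the 10 genes (vertical axis, linear, own scale per gene) in PBS (3 libraries), OVA/LPS/Vehicle (4) and OVA/LPS/GGsTop (4), with a point per library and the mean and SD of each group as a bar, left out for Mpo and Elane. Camp and Ngp in PBS lie below all OVA/LPS libraries of both groups, Ltf ranges from 2.92 to 522 FPKM, and S100a8 and S100a9 overlap across the groups.

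S100a8 and S100a9 form calprotectin, the calcium- and zinc-binding heterodimer that makes up a large share of neutrophil cytosolic protein and acts on Toll-like receptor 4 when released. S100a8 was at 23.5, 11.4 and 48.3 FPKM in PBS 1, 2 and 3, at 27.5, 40.1, 21.5 and 32.7 FPKM in OVA/LPS/Vehicle 12, 34, 56 and 78, and at 24.1, 39.9, 28.2 and 18.0 FPKM in OVA/LPS/GGsTop 1 to 4. S100a9 was at 99.6, 57.6 and 222 FPKM in PBS, at 117, 156, 90.4 and 135 FPKM in OVA/LPS/Vehicle, and at 80.3, 146, 114 and 67.4 FPKM in OVA/LPS/GGsTop. The lowest and the highest value of both genes over all 11 libraries belonged to PBS libraries, and the groups overlapped.

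The log2 fold change of OVA/LPS/Vehicle against PBS was 0.32 for S100a8 (SE 0.40, adjusted p = 0.544, limma) and 0.17 for S100a9 (SE 0.40, adjusted p = 0.75, limma). The 95% interval reached from −0.56 to 1.19 for S100a8 and from −0.70 to 1.04 for S100a9, so that changes within these bounds remain possible. Without PBS 3 the S100a8 value was 0.81 (adjusted p = 0.118, limma) and without PBS 2 it was −0.18. For S100a9 the value was 0.68 without PBS 3 and −0.28 without PBS 2, and it was −0.0052 after scaling to the same FPKM total. S100a9 stood at 3.33 to 5.04 times the FPKM of S100a8 in every library. Across the 11 libraries, log2(FPKM + 1) of the pair gave a Pearson r of 0.963 and a Spearman rho of 0.964. GC slopes were alike within each OVA/LPS group, whereas PBS 3 differed from PBS 1 and PBS 2 in GC slope and depth. The part of these features in the correlation was not tested.

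Outside the 10 genes, Poc1a, Clec4d and Pcbd1 had the values most like S100a8 over the 11 libraries, by Pearson r of log2(FPKM + 1). The correlation of Clec4d, a C-type lectin of neutrophils and monocytes, was 0.864, and that of Poc1a, a centriole gene, was 0.879. Mmp8, described next, followed S100a8 with an r of 0.838 and S100a9 with an r of 0.828.

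Mmp8 encodes neutrophil collagenase, which is stored in specific granules and cuts fibrillar collagen. Its level was 2.05, 1.04 and 2.63 FPKM in PBS, 1.94, 2.06, 1.45 and 1.999 FPKM in OVA/LPS/Vehicle, and 1.97, 2.13, 1.33 and 1.003 FPKM in OVA/LPS/GGsTop. The groups overlapped, and PBS again held the highest value, in PBS 3. The log2 fold change of OVA/LPS/Vehicle against PBS was 0.01 (SE 0.21, adjusted p = 0.967, limma), with a 95% interval from −0.44 to 0.47. Its sign was negative after the GC correction (−0.31) and after scaling to the same FPKM total (−0.10).

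Csf3r encodes the receptor that drives neutrophil production and survival. It was at 20.4, 16.5 and 39.8 FPKM in PBS, at 15.3, 16.1, 7.77 and 13.4 FPKM in OVA/LPS/Vehicle, and at 21.8, 20.96, 19.7 and 12.9 FPKM in OVA/LPS/GGsTop. Every OVA/LPS/Vehicle library lay under every PBS library, by a margin of less than 1 FPKM between PBS 2 and OVA/LPS/Vehicle 34. Csf3r fell by 0.86 on the log2 scale in OVA/LPS/Vehicle against PBS (SE 0.31, adjusted p = 0.0456, limma). The value was −0.50 without PBS 3 (adjusted p = 0.214, limma) and −0.63 after the GC correction (adjusted p = 0.124, limma), neither of which is called. When 1 of the 7 libraries at a time was left out, the call was lost for 6, with fold changes between −1.11 and −0.50, and it was kept only without PBS 2.

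Among the specific granule genes, Ltf moved most. Lactoferrin, its product, binds iron and is secreted both by neutrophils and by glandular epithelium. Ltf was at 21.2, 178 and 2.92 FPKM in PBS, at 251, 364, 522 and 222 FPKM in OVA/LPS/Vehicle, and at 80.8, 158, 15.1 and 452 FPKM in OVA/LPS/GGsTop. All 4 OVA/LPS/Vehicle libraries lay above all PBS libraries, while PBS 2 was the highest PBS library by far and OVA/LPS/GGsTop 4 was the highest of its group. The mean was 67.2 ± 96.0 FPKM (SD, n = 3) in PBS and 340 ± 136 FPKM (SD, n = 4) in OVA/LPS/Vehicle.

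Ltf rose by 3.69 on the log2 scale in OVA/LPS/Vehicle against PBS (SE 1.21, adjusted p = 0.0334, limma), with a 95% interval from 1.04 to 6.34. Without PBS 3 the value was 2.35 (adjusted p = 0.169, limma), without PBS 2 it was 5.11 (adjusted p = 0.00426, limma), and after the GC correction it was 3.76 (adjusted p = 0.0517, limma). The call was lost without any 1 of the other 6 libraries, with adjusted p between 0.0529 and 0.169 by limma.

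The genes most like Ltf over the 11 libraries were Oit1 (r = 0.984), Scgb3a1 (r = 0.982) and Cab39l (r = 0.981). Scgb3a1 encodes a secretoglobin of airway secretory cells. It stood at 160, 1349 and 35.7 FPKM in PBS, at 1773, 2961, 3113 and 2458 FPKM in OVA/LPS/Vehicle, and at 1205, 1711, 245 and 4097 FPKM in OVA/LPS/GGsTop. Like Ltf, it was highest in PBS 2 among PBS libraries and lowest in OVA/LPS/GGsTop 3 and highest in OVA/LPS/GGsTop 4 among those of its group.

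The summed airway gland markers held the same library order as Ltf within each group, but not every single marker did. The summed level of the 12 listed, 3 of which (Bpifa2, Dcpp3 and Prol1) were listed at 0 in every library, was 607, 3928 and 480 FPKM in PBS, 2369 to 5299 FPKM in OVA/LPS/Vehicle, and 927, 1802, 381 and 5595 FPKM in OVA/LPS/GGsTop. Of the 9 tested, 6 rose and 1 fell in OVA/LPS/Vehicle against PBS, where 38% of all tested genes were called. Their median log2 fold change was 2.83, beside −0.01 for all genes. Pigr, the receptor that carries IgA across epithelium, rose by 2.62 (SE 0.69, adjusted p = 0.0143, limma; 0.0732 without PBS 3), and Bpifb1, an antimicrobial secretory protein, by 4.65 (SE 1.08, adjusted p = 0.00937, limma; 0.0452 without PBS 3). Within OVA/LPS/Vehicle, Pigr (132 FPKM) and Bpifb1 (194 FPKM) were lowest in library 56, where Ltf was highest. The part of the gland markers in the Ltf value was not tested. Ltf and Csf3r went opposite ways over the 11 libraries, with an r of −0.841.

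**Figure D2:**
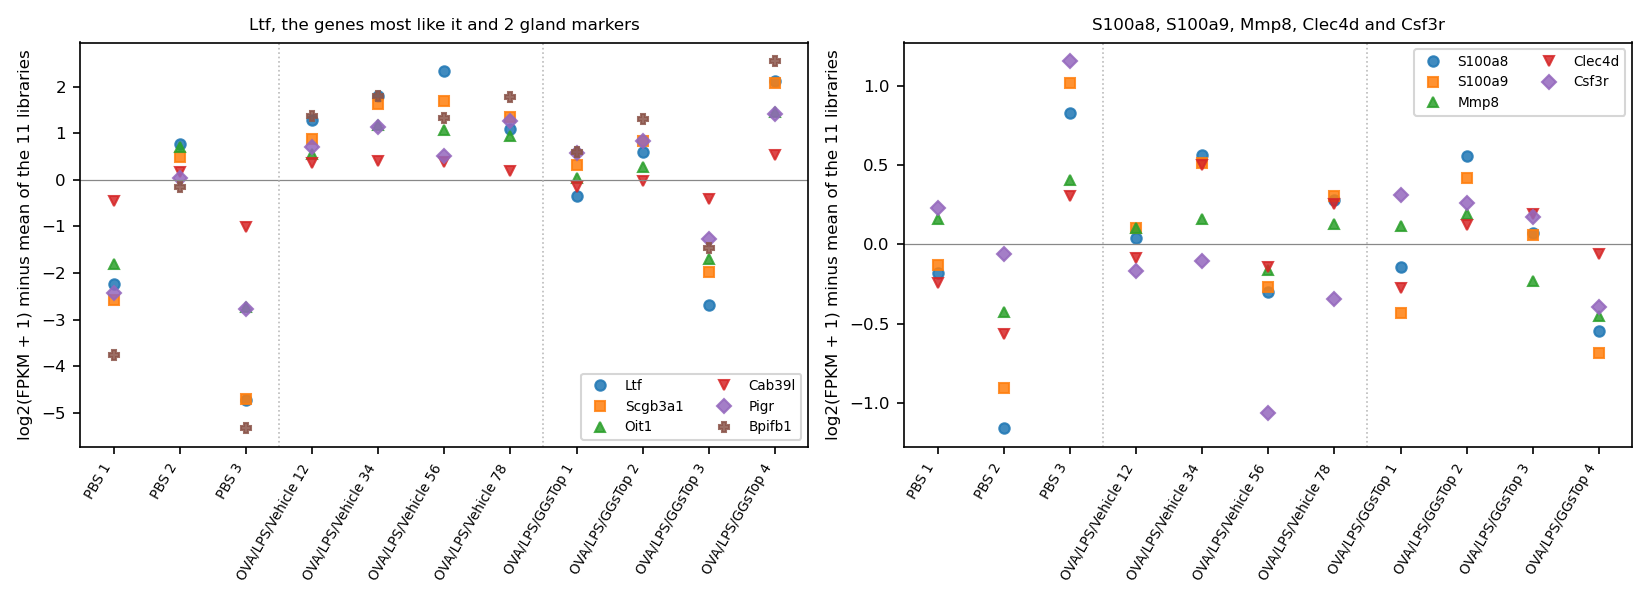
Deviation of log2(FPKM + 1) from the mean of the 11 libraries (vertical axis) for each library (horizontal axis, by group). In the left panel Ltf (0.984 with Oit1 and 0.982 with Scgb3a1, Pearson r) is low in PBS 1, PBS 3 and OVA/LPS/GGsTop 3 together with Pigr and Bpifb1, and in the right panel S100a8, S100a9 and Mmp8 are lowest or near lowest in PBS 2 and highest in PBS 3.

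Lcn2 encodes lipocalin 2, which withholds iron by binding bacterial siderophores. It was at 12.05, 24.0 and 23.9 FPKM in PBS, at 23.4, 46.4, 32.8 and 49.1 FPKM in OVA/LPS/Vehicle, and at 25.2, 45.6, 17.7 and 28.1 FPKM in OVA/LPS/GGsTop. OVA/LPS/Vehicle 12 lay just under the highest PBS libraries, and the other OVA/LPS/Vehicle libraries lay above them. On the log2 scale the difference from PBS was 0.90 (SE 0.34, adjusted p = 0.0571, limma), outside the call threshold. It was 1.14 after the GC correction (adjusted p = 0.037, limma) and 1.05 without PBS 3 (adjusted p = 0.0851, limma). The genes most like Lcn2 over the 11 libraries were Klrb1a (r = 0.911), Vnn3 (r = 0.897) and Smim22 (r = 0.878).

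Ngp and Camp were measured at low levels. Ngp, or neutrophilic granule protein, is a cystatin-like protein of specific granules, and Camp encodes the precursor of the antimicrobial cathelicidin peptide. Ngp was at 0.92, 0.21 and 1.27 FPKM in PBS, at 1.64, 2.64, 2.41 and 3.53 FPKM in OVA/LPS/Vehicle, and at 1.41, 2.37, 4.56 and 2.49 FPKM in OVA/LPS/GGsTop. Camp was at 0.35, 0.34 and 0.35 FPKM in PBS, at 1.62, 1.09, 0.99 and 0.63 FPKM in OVA/LPS/Vehicle, and at 1.49, 1.36, 1.59 and 0.98 FPKM in OVA/LPS/GGsTop. No OVA/LPS library of either group came down to a PBS library for these genes. Behind the values lie few fragments, 17, 4 and 29 for Ngp and 4, 4 and 5 for Camp in PBS, against 31 to 72 and 8 to 19 in OVA/LPS/Vehicle.

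Ngp rose by 1.001 on the log2 scale in OVA/LPS/Vehicle against PBS (SE 0.29, adjusted p = 0.0206, limma), and Camp by 0.61 (SE 0.16, adjusted p = 0.0137, limma). On this scale the pseudocount of 1 FPKM understates the change of genes at such levels: Ngp averaged 0.803 ± 0.541 FPKM in PBS (SD, n = 3) and 2.55 ± 0.778 FPKM after OVA/LPS (SD, n = 4), and Camp 0.348 ± 0.00705 FPKM in PBS (SD, n = 3) and 1.08 ± 0.407 FPKM after OVA/LPS (SD, n = 4). Without PBS 3 the values were 1.19 for Ngp (adjusted p = 0.0294, limma) and 0.61 for Camp (adjusted p = 0.04, limma). Camp kept its call without each of the 7 libraries in turn, whereas Ngp lost it without PBS 2 (adjusted p = 0.0582, limma) and without OVA/LPS/Vehicle 78 (adjusted p = 0.055, limma). The small spread of Camp in PBS rests on 4, 4 and 5 fragments, too few to measure a spread well. Across the 11 libraries Ngp and Camp gave an r of 0.578, Ngp and Ltf 0.139 and Camp and Ltf 0.316.

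Mpo encodes myeloperoxidase, which makes hypochlorous acid, and Elane encodes neutrophil elastase. Mpo was listed at 0, 0 and 0.06 FPKM in PBS, at 0.04, 0.07, 0 and 0.09 FPKM in OVA/LPS/Vehicle, and at 0.04, 0.24, 0.07 and 0.06 FPKM in OVA/LPS/GGsTop, from 36 fragments in all libraries together. Elane was listed at 0, 0 and 0.11 FPKM in PBS, at 0.20, 0, 0 and 0 FPKM in OVA/LPS/Vehicle, and at 0, 0.14, 0.19 and 0.27 FPKM in OVA/LPS/GGsTop, from 14 fragments. No library held more than 12 fragments of Mpo or 4 of Elane. The exact two-sided permutation test gave p = 0.4 for Mpo and p = 1 for Elane in OVA/LPS/Vehicle against PBS, where the smallest p that it can give is 0.0571. A difference in these genes was not detectable at this depth.

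**Figure D3:**
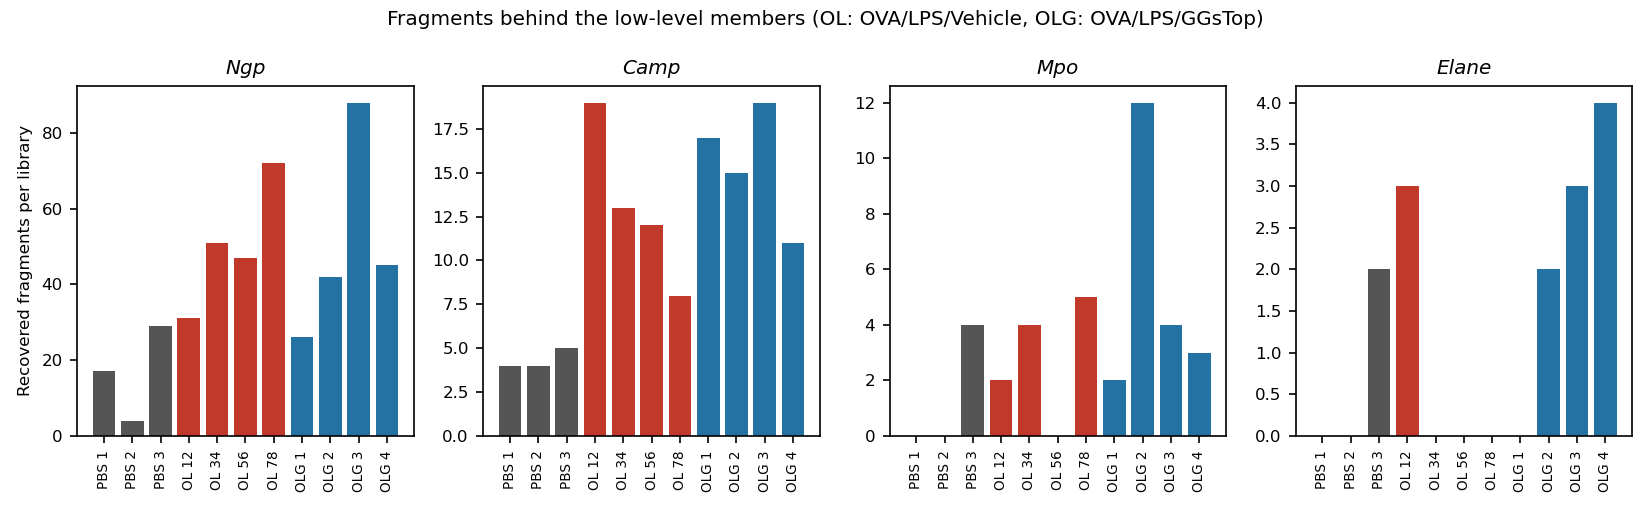
Recovered fragments per library (vertical axis, linear from 0, own scale per gene) of the 4 genes with the lowest levels, with a bar per library (OL is OVA/LPS/Vehicle, OLG is OVA/LPS/GGsTop). Ngp reaches 88 fragments and Camp 19, with PBS libraries lowest for both except that PBS 3, at 29 fragments of Ngp, is above OVA/LPS/GGsTop 1, at 26, while Mpo and Elane are at 0 in 3 and 6 of the 11 libraries.

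Other genes of the same granules did not move one way. Of 6 other primary granule genes only Ctsc, the protease that activates elastase and its relatives, passed the filter, and it was not called (log2 fold change −0.31, adjusted p = 0.204, limma). Prtn3, which encodes proteinase 3, was at 0.674 ± 0.446 FPKM (SD, n = 3) in PBS and 0.389 ± 0.127 FPKM (SD, n = 4) in OVA/LPS/Vehicle. Of 9 tested genes of specific and gelatinase granules, 2 rose, 2 fell and 5 were not called, where 38% of all tested genes were called. Their median log2 fold change was 0.04. Pglyrp1, a peptidoglycan-binding protein, rose by 2.48 (SE 0.61, adjusted p = 0.0113, limma; 0.0532 without PBS 3), and Cd177, a surface protein of neutrophils, by 1.96 (SE 0.69, adjusted p = 0.0444, limma; 0.155 without PBS 3). Mmp9, the gelatinase, fell by 0.94 (SE 0.28, adjusted p = 0.0219, limma) and was called neither after the GC correction (adjusted p = 0.0838, limma) nor without PBS 3 (−0.75, adjusted p = 0.102, limma). Itgb2l, an integrin chain, fell by 0.49 (SE 0.16, adjusted p = 0.0308, limma), with an adjusted p of 0.121 after the GC correction and 0.129 without PBS 3. When 1 of the 7 libraries was left out, the call was lost for 6 with Cd177 and for 5 with Itgb2l. Pglyrp1 and Cd177 shared the library order of Ltf in part: PBS 2 was highest in PBS, at 17.9 and 14.1 FPKM, and OVA/LPS/GGsTop 4 was highest and OVA/LPS/GGsTop 3 lowest in their group.

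Of 17 tested genes of mature neutrophils, 1 rose, 3 fell and 13 were not called, where 38% of all tested genes were called. Clec4e, a C-type lectin that senses mycobacterial lipid, rose by 0.55 (SE 0.18, adjusted p = 0.0354, limma). Cxcr1, a chemokine receptor, fell by 0.94 (SE 0.22, adjusted p = 0.00972, limma), with means of 1.31 ± 0.695 FPKM in PBS (SD, n = 3) and 0.169 ± 0.0935 FPKM after OVA/LPS (SD, n = 4). The histone-citrullinating Padi4 fell by 0.47 (SE 0.16, adjusted p = 0.0426, limma), and the lipase inhibitor G0s2 by 0.59 (SE 0.18, adjusted p = 0.0253, limma). After the GC correction Cxcr1 kept its call, whereas Clec4e (adjusted p = 0.648, limma), Padi4 (adjusted p = 0.284, limma) and G0s2 (adjusted p = 0.238, limma) did not. The same 3 were not called without PBS 3, with adjusted p of 0.1005 for Clec4e, 0.172 for Padi4 and 0.106 for G0s2 by limma, while Cxcr1 kept its call without each of the 7 libraries. The calls of Clec4e and Padi4 were lost without any 1 of 5 of the libraries. G0s2 is also a gene of fat and epithelium.

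The defining markers of neutrophils were at low to moderate levels and did not move one way, with Cxcr1, given above, among them. The summed level of 7 markers was 31.8 to 53.5 FPKM in PBS, 23.7 to 88.7 FPKM in OVA/LPS/Vehicle and 48.6 to 104 FPKM in OVA/LPS/GGsTop, and the ranges overlapped. Retnlg made up a large part of this sum, at 16.2 to 31.9 FPKM in PBS. Ly6g was listed at 0 in PBS 1 and PBS 2 and at 0.171 FPKM in PBS 3, and lay between 0.4 and 0.953 FPKM in OVA/LPS/Vehicle and between 0.0717 and 1.02 FPKM in OVA/LPS/GGsTop. Every OVA/LPS/Vehicle library thus lay above every PBS library for Ly6g, as for 18.7% of all tested genes, from 6 to 15 fragments against 0 to 3. The mean of Ly6g was under the filter. Cxcr2, the main chemokine receptor of neutrophils, was at 4.95 ± 1.11 FPKM (SD, n = 3) in PBS and 5.5 ± 1.86 FPKM (SD, n = 4) in OVA/LPS/Vehicle, with a log2 fold change of 0.10 (adjusted p = 0.749, limma) that was −0.10 after the GC correction. Retnlg, a resistin-like protein of neutrophils, differed from PBS by 0.76 on the log2 scale (SE 0.51, adjusted p = 0.248, limma) and Stfa2l1, a stefin, by 0.84 (SE 0.31, adjusted p = 0.05004, limma), just outside the threshold.

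Markers of other cells moved as well, in a comparison where 38% of all tested genes were called. Their part in the values of the granule genes was not tested. The summed level of 7 measured erythroid genes was 3002 to 7726 FPKM in PBS, highest in PBS 3 and lowest in PBS 2 as for S100a8, and 1996 to 2823 FPKM in OVA/LPS/Vehicle, with 2 called lower (Hba-a1 and Hbb-bs) and 5 not called. Neither was called without PBS 3 (adjusted p = 0.086 for Hba-a1 and 0.198 for Hbb-bs, limma). Of 12 genes of monocytes and macrophages, which can also express S100a8 and S100a9, 3 rose (Cd14, Ccr2 and C1qa) and 1 fell (Csf1r). C1qa rose by 0.66 on the log2 scale (SE 0.19, adjusted p = 0.0214, limma), and its value without PBS 3 is not given. Cd14, the LPS co-receptor, rose by 0.79 (SE 0.25, adjusted p = 0.0275, limma; 0.0788 without PBS 3) and Ccr2, a receptor of inflammatory monocytes, by 0.53 (SE 0.16, adjusted p = 0.0222, limma; 0.0774 without PBS 3), while Csf1r, the macrophage growth factor receptor, fell by 0.61 (SE 0.16, adjusted p = 0.0151, limma; 0.0636 without PBS 3). The GC correction moved Ccr2 to 0.018 (adjusted p = 0.948, limma) and Csf1r to −0.36 (adjusted p = 0.0774, limma). The summed level of these 12 was 2556 to 3523 FPKM in PBS, 2130 to 3066 FPKM in OVA/LPS/Vehicle and 2130 to 3396 FPKM in OVA/LPS/GGsTop. Of 6 tested eosinophil genes 1 rose (Prg2) and of 8 epithelial genes 2 rose (Foxj1 and Epcam). Without PBS 3 Foxj1 kept its call, and Prg2 (adjusted p = 0.0766, limma) and Epcam (adjusted p = 0.0705, limma) did not. None of 6 platelet and 9 lymphocyte genes was called by limma, with 1 of each list at an unadjusted p under 0.05. By limma voom on the recovered fragments, none of the platelet and 1 of the lymphocyte genes was called.

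Ligands, receptors and inhibitors of the granule proteins were examined next. Of 9 tested, 2 rose and 5 fell in OVA/LPS/Vehicle against PBS, where 38% of all tested genes were called. Slpi, the secreted inhibitor of neutrophil elastase, averaged 15.9 ± 4.5 FPKM in PBS (SD, n = 3) and 68.2 ± 43.4 FPKM after OVA/LPS (SD, n = 4) and rose by 1.87 on the log2 scale (SE 0.42, adjusted p = 0.00844, limma). Slc22a17, a receptor of lipocalin 2, averaged 8.19 ± 1.10 FPKM in PBS (SD, n = 3) and 3.76 ± 0.545 FPKM after OVA/LPS (SD, n = 4) and fell by 0.95 (SE 0.13, adjusted p = 0.00337, limma). Lrp1, an endocytic receptor that takes up lactoferrin, averaged 49.3 ± 16.3 FPKM in PBS (SD, n = 3) and 18.3 ± 3.21 FPKM after OVA/LPS (SD, n = 4) and fell by 1.35 (SE 0.19, adjusted p = 0.00337, limma). The calls of Slpi, Slc22a17 and Lrp1 held under all 12 other settings and without each of the 7 libraries. Tlr4, a receptor of calprotectin and LPS, was the other gene that rose, and Lrp2, Ager and Timp2 were the others that fell, named after their values were seen. Without PBS 3 Timp2 kept its call, and Tlr4 (adjusted p = 0.0846, limma), Lrp2 (adjusted p = 0.104, limma) and Ager (adjusted p = 0.138, limma) did not. After the GC correction Tlr4 was at 0.14 (adjusted p = 0.538, limma), Ager at −0.54 (adjusted p = 0.181, limma) and Timp2 at −0.28 (adjusted p = 0.144, limma), none of them called.

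None of the 6 transcription factors of granule gene control (Gfi1, Cebpe, Cebpa, Cebpb, Cebpd and Spi1) was called in any comparison by limma or by limma voom, and 2 had an unadjusted p under 0.05, both in OVA/LPS/GGsTop against PBS. Cebpa stood at 43.4 ± 5.0 FPKM (SD, n = 3) in PBS and 39.9 ± 4.73 FPKM (SD, n = 4) in OVA/LPS/Vehicle, and Cebpd at 26.5 ± 7.4 FPKM (SD, n = 3) and 41.2 ± 14.5 FPKM (SD, n = 4). Of 9 tested members of the S100 family other than S100a8 and S100a9, 1 (S100a1) rose, where 15.9% of all tested genes were called higher. S100a1 rose by 0.63 (SE 0.19, adjusted p = 0.0235, limma). Its call was lost without PBS 1 (adjusted p = 0.0887, limma), without PBS 3 (adjusted p = 0.0604, limma), without OVA/LPS/Vehicle 56 (adjusted p = 0.0583, limma) and after scaling to the same FPKM total (adjusted p = 0.0549, limma). S100a4 was listed at 0 in every library.

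The next comparison asks whether GGsTop changed these genes in the OVA/LPS airway. None of the 8 tested genes was called between the GGsTop and the vehicle group by limma or by limma voom, and none had an unadjusted p under 0.05, whereas 8.71% of all tested genes were called (6.9% higher and 1.81% lower) and 30.8% had such a p. Limma with array weights called 1 gene, Csf3r (0.57 on the log2 scale, adjusted p = 0.0362). In no gene of the 8 were the groups apart, which held for 29.7% of all tested genes.

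The intervals show which changes remain possible. For S100a8 the log2 fold change was −0.16 with a 95% interval from −0.97 to 0.65, and for S100a9 it was −0.32 with an interval from −1.13 to 0.48. For Lcn2 it was −0.39 (−1.08 to 0.30) and for Mmp8 −0.15 (−0.57 to 0.27). Ngp and Camp had values of 0.02 (−0.56 to 0.61) and 0.19 (−0.13 to 0.51), and Csf3r one of 0.51 (−0.11 to 1.13).

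Ltf had the widest interval, −1.70 (−4.16 to 0.75, SE 1.12, adjusted p = 0.313, limma). Its value was −0.83 without OVA/LPS/GGsTop 3, the library at 15.1 FPKM, and −2.44 without OVA/LPS/GGsTop 4, the library at 452 FPKM. Of the 9 tested gland markers 2 were lower and none higher, where 8.71% of all tested genes were called (1.81% lower). Among the 2 was Dmbt1, a mucosal scavenger protein, which fell by 2.95 (SE 0.68, adjusted p = 0.0302, limma). The call of Dmbt1 was lost in 5 of the 8 fits with a library left out and after the GC correction (adjusted p = 0.0506, limma). Limma voom called none of the 9. For Mpo and Elane the exact two-sided permutation test gave p = 0.371 each, against a smallest possible p of 0.0286.

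**Figure D4:**
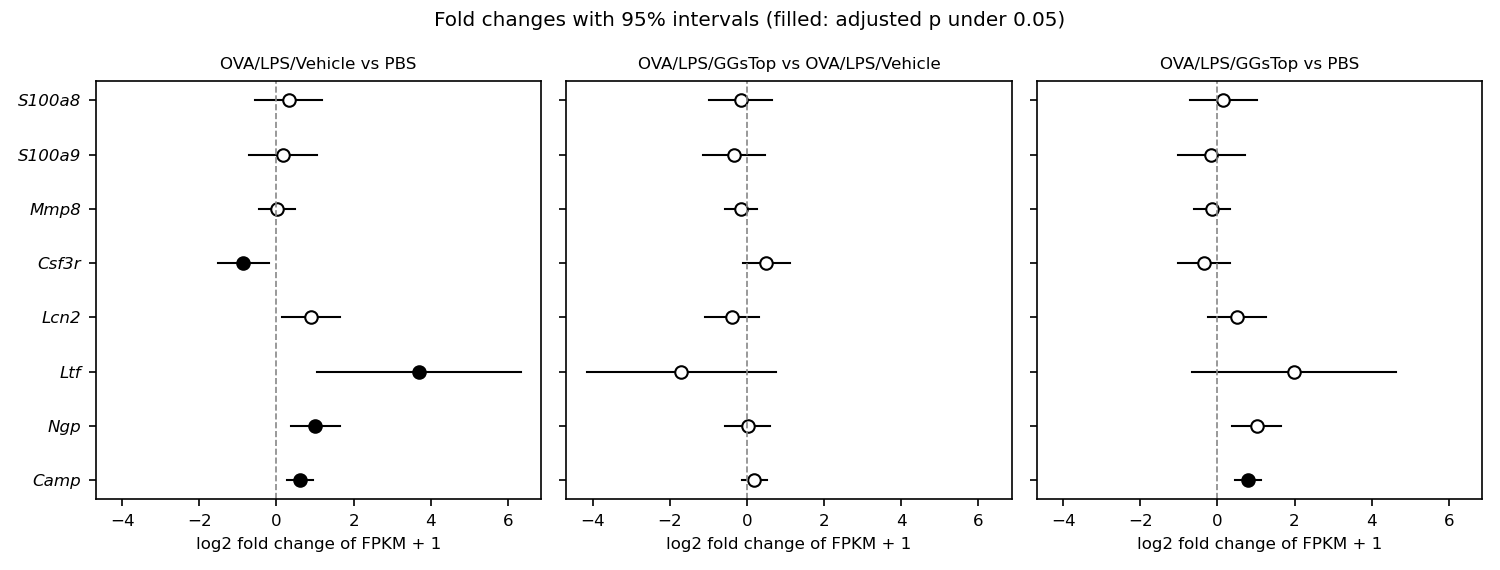
Log2 fold change of FPKM + 1 (horizontal axis, shared by the panels) with its 95% interval from limma for the 8 tested genes in the 3 comparisons, filled where the adjusted p was under 0.05. Ltf, Ngp, Camp (higher) and Csf3r (lower) are filled for OVA/LPS/Vehicle against PBS, none is filled between the GGsTop and the vehicle group, and Camp alone is filled for OVA/LPS/GGsTop against PBS.

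Of the 9 tested ligands, receptors and inhibitors of the granule proteins, 2 were called higher and 1 lower with GGsTop, where 8.71% of all tested genes were called. Serpinb1a, an intracellular inhibitor of neutrophil elastase and related proteases, averaged 11.7 ± 0.36 FPKM with vehicle (SD, n = 4) and 7.78 ± 0.922 FPKM with GGsTop (SD, n = 4) and fell by 0.54 on the log2 scale (SE 0.09, adjusted p = 0.0187, limma), with every OVA/LPS/GGsTop library under every OVA/LPS/Vehicle library. After the GC correction the value was −0.31 (adjusted p = 0.0798, limma). Slc22a17 rose by 0.66 (SE 0.12, adjusted p = 0.0187, limma; 0.0564 after the GC correction) and Lrp1 by 0.98 (SE 0.18, adjusted p = 0.019, limma). When 1 of the 8 libraries was left out, the calls of Lrp1 and Slc22a17 were each lost in 4 fits (adjusted p up to 0.0718, limma), without OVA/LPS/Vehicle 34 or 56 or without OVA/LPS/GGsTop 1 or 3. That of Serpinb1a was lost in 3, without the first 3 of these (adjusted p up to 0.0714, limma). In the S100 family, S100a13 fell by 0.42 (SE 0.12, adjusted p = 0.0492, limma), and this call was lost without each of the 8 libraries in turn. Of the 1 primary granule, 9 specific and gelatinase granule and 17 mature neutrophil genes tested, none was called by limma or by limma voom, with 0, 1 and 1 at an unadjusted p under 0.05. Padi4 differed by 0.54 on the log2 scale (SE 0.15, adjusted p = 0.0508, limma).

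OVA/LPS/GGsTop was also set against PBS, a comparison that shares its PBS libraries with the first. Camp was the only one of the 8 genes called, beside 2.88% of all tested genes (2.06% higher and 0.821% lower). It rose by 0.80 on the log2 scale (SE 0.16, adjusted p = 0.0262, limma), to a mean of 1.36 ± 0.266 FPKM (SD, n = 4), with 11 to 19 fragments in each OVA/LPS/GGsTop library. A further fit took the replicate number as a block, which pairs libraries 1 to 3 of both groups. It leaves out OVA/LPS/GGsTop 4 and the OVA/LPS/Vehicle libraries. There the value was 0.88 (adjusted p = 0.0505, limma), outside the threshold, and 0.96 with the GC correction added (adjusted p = 0.0354, limma). The call was lost without any 1 of PBS 1, PBS 3, OVA/LPS/GGsTop 1 and OVA/LPS/GGsTop 2, with adjusted p between 0.0707 and 0.101 by limma.

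Ngp had a value of 1.02 (SE 0.29, adjusted p = 0.0775, limma) and groups that did not overlap, as in 14.8% of all tested genes (7.22% with OVA/LPS/GGsTop higher and 7.54% with it lower). Ltf had 1.98 (SE 1.21, adjusted p = 0.372, limma), Lcn2 0.50 (SE 0.34, adjusted p = 0.417, limma) and Csf3r −0.35 (SE 0.31, adjusted p = 0.534, limma). S100a8, S100a9 and Mmp8 had values of 0.16, −0.16 and −0.14, with 95% intervals that all reached across 0. Slpi rose by 2.27 (SE 0.42, adjusted p = 0.0218, limma), Serpinb1a fell by 0.44 (SE 0.10, adjusted p = 0.0464, limma) and G0s2 by 0.82 (SE 0.18, adjusted p = 0.0379, limma). Without PBS 3 none of these was called, with adjusted p of 0.0724 for Slpi, 0.0812 for Serpinb1a and 0.137 for G0s2 by limma. With 1 of the 7 libraries left out, the call was lost in 4 fits for Slpi (adjusted p up to 0.0912, limma) and in 5 each for Serpinb1a and G0s2. With the block the values of Serpinb1a and G0s2 were −0.46 (adjusted p = 0.197, limma) and −0.83 (adjusted p = 0.0603, limma), outside the threshold. For Mpo and Elane the exact two-sided permutation test gave p = 0.171 and p = 0.229, where the smallest p that it can give is 0.0571.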

How the data were processed

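The authors deposited FPKM, a column for each library, and no scaling between the libraries was added. The submitters' processing notes name cutadapt 1.15, HISAT2 2.0.5, HTSeq 0.9.1 and the mouse build mm39, and the study tested with DESeq, which needs counts. Genes were looked up in GENCODE M21 on GRCm38, the build of all coordinates given here. With merged exon lengths of M21, 97.8% of genes were whole fragments (within 0.05) in every library, and these recovered fragments served only limma voom, which called 5528, 1181 and 340 genes in the 3 comparisons, and the fragment numbers printed. Differential expression was tested with limma 3.58.1 in R 4.3.3 on log2(FPKM + 1) with a mean-variance trend, and genes under a mean of 0.5 FPKM by an exact two-sided permutation test, without adjustment. The script was tested on simulated data.

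The 10 genes, the 13 other lists and the tests were chosen with earlier results of these data known. The genes named are the 10, up to 4 called genes with the smallest p of each list or, where none was called, the 2 with the highest mean, the markers Ly6g, Cxcr2, Retnlg and Stfa2l1, and the 3 genes most correlated with S100a8, Ltf and Lcn2. The GC correction subtracted a spline with 5 degrees of freedom per library from the deviations from gene means. PBS and OVA/LPS/GGsTop share the replicate numbers 1 to 3. Same-numbered libraries deviated together across genes (r of 0.367, 0.427 and 0.428). PBS 1 was closer to OVA/LPS/GGsTop 3 (0.457) and PBS 2 to OVA/LPS/GGsTop 4 (0.637), and the labels do not say what a number stands for. The main fit held no pairing, and the number served as a block only in the fits named so. Figures were made with matplotlib 3.10.9.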

Additional observations from a re-analysis of the deposited data

Results flagged for a closer look

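Elane was listed at 0.197 FPKM in OVA/LPS/Vehicle 12 and at 0 in the other 3 libraries of that group, which set this library apart from the others. The value rests on 3 fragments. With the other 3 libraries at 0, the gap equals the whole range whatever the value, so the flag says little about its size. Of 20 groups of 4 libraries examined in this way, chance would flag about 1 if values were normally spread, which counts of 0 and 3 are not.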

How the results depend on the processing

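The 95% intervals of the 8 tested genes were wide. Mpo and Elane were limited by few fragments and, against PBS, by a permutation test that cannot fall under 0.0571. In OVA/LPS/Vehicle against PBS, 4 genes of the 8 were called. Without a filter on low values 2 of 10 were called (Ngp and Camp), and 1 to 4 with each library left out in turn. Ngp and Camp kept their calls under all other settings that did not leave out a library, except that Camp was under the filter at a minimum mean of 1 FPKM. Limma with array weights added Lcn2. In OVA/LPS/GGsTop against OVA/LPS/Vehicle the number was 0 under all settings except array weights (1), with 0 to 0 over the libraries left out. In OVA/LPS/GGsTop against PBS it was 1 (Camp), 3 with array weights and 0 with a minimum mean of 1 FPKM, with only the compared groups, with limma voom and with the replicate block, and 0 to 1 with a library left out.

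Over all tested genes, 5327, 1220 and 403 were called in the 3 comparisons. The first number was 3001 after the GC correction and 3064 to 6440 with a library left out. The second was 2181 after scaling to the same FPKM total, 781 with median-ratio size factors, 5214 with array weights, 3525 with only the compared groups, 313 after the GC correction and 24 to 1052 with a library left out. The third was 208 without a filter, 2557 with array weights, 39 with only the compared groups, 609 after the GC correction, 62 with the replicate block and 29 to 1597 with a library left out. The same 6 libraries without the block, added after the data were seen, gave 14 genes and 0 of the 8. The cause of these differences was not tested.

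The higher and lower calls were 2231 and 3096, 966 and 254, and 288 and 115 in the 3 comparisons. After scaling to the same FPKM total they were 1232 and 4570, 2026 and 155, and 250 and 243, and the median of all genes was −0.15, 0.11 and −0.06. With median-ratio size factors the second comparison gave 448 and 333.

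Signs turned only for values that were not called. In OVA/LPS/Vehicle against PBS they turned after scaling to the same FPKM total for S100a9 (−0.0052), Mmp8 (−0.10) and Cxcr2 (−0.047), after the GC correction for S100a9 (−0.054), Mmp8 (−0.31) and Cxcr2 (−0.10), and with array weights for Mmp8 (−0.021). In OVA/LPS/GGsTop against OVA/LPS/Vehicle they turned for Ngp with median-ratio size factors (−0.0043), array weights (−0.21) and the GC correction (−0.0084), and after the GC correction for S100a8 (0.036) and Mmp8 (0.078). In OVA/LPS/GGsTop against PBS, S100a9 was 0.038 with array weights and 0.019 with the replicate block and with the same 6 libraries unblocked. With a library left out, the ranges were −0.18 to 0.81 (S100a8), −0.28 to 0.68 (S100a9), −0.22 to 0.19 (Mmp8) and −0.064 to 0.28 (Cxcr2) in the first comparison, −0.35 to 0.018 (S100a8) and −0.19 to 0.21 (Ngp) in the second, and −0.34 to 0.65 (S100a8), −0.61 to 0.36 (S100a9), −0.60 to 0.0072 (Csf3r) and −0.38 to 0.042 (Mmp8) in the third. The fit with the replicate block held fewer libraries than the main fit. In the block fit Camp, Serpinb1a and G0s2 were not called, and Slpi was (adjusted p = 0.0498, limma). Camp was not called in the same 6 libraries without the block either (adjusted p = 0.0749, limma). None of the other 7 tested genes of the 10 was called with or without the block.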
